A study of Mus musculus with 12 samples.

Results

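Macrophage genes were read in fetal liver blood cells through 10 genes: *Adgre1*, *Vcam1*, *C1qa*, *C1qb*, *C1qc*, *Cd5l*, *Mertk*, *Axl*, *Csf1r* and *Cd68*. They were listed by name, as genes of the macrophages around which fetal liver erythroblasts mature, and no measured value enters the rule that picks them. All 10 were measured, each by 1 probe set, among 19937 genes in all. The study compared 3 mouse populations from E14.5 fetal liver on gene expression arrays, with 4 arrays for each population. HSPC, labelled HSC in the deposited data and taken here as the HSPC of the study, were freshly sorted cells that had been depleted with lineage antibodies, CD11b of myeloid cells among them, and that carried Sca1. ERY were erythroblasts purified with beads on Ter119, a surface antigen of maturing red cells, and were not cultured. MEG were megakaryocytes, grown in culture from KIT+ progenitors and enriched with beads on CD41. No population was selected for macrophages, and the labels give no genetic change for any of them. Purification and culture differed between the populations, so that their part in a difference and the part of the cell type cannot be told apart.

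In the fetal liver, erythroblasts mature in islands around a central macrophage. The macrophage holds them through adhesion molecules such as VCAM1, engulfs the nuclei that they expel, and returns the iron of spent red cells. Macrophages depend on CSF1R, the receptor of the growth factor CSF1, and on the transcription factor PU.1, encoded by *Spi1*. They make the 3 chains of complement C1q, which tags material for removal, and they recognize dying cells through MERTK and AXL. Erythroblasts and megakaryocytes are the other partners in these cell contacts, and some of the molecules, such as scavenger receptors and integrins, are made by both sides.

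The C1q genes lie side by side on chromosome 4 within 18.7 kb, with *C1qb* at chr4:136880126-136886200, *C1qc* at chr4:136889801-136892936 and *C1qa* at chr4:136895916-136898844 (GRCm38.p6). Promoter windows were the 250 bases before the start that the RefSeq table of that build gives for a gene. They were read for 6 of the 10 genes, *C1qb*, *C1qc*, *Cd5l*, *Cd68*, *Mertk* and *Axl*. No window was read for *C1qa*, *Vcam1*, *Adgre1* and *Csf1r*, so the motif counts leave these genes out. Their omission does not show that the table lacks them. In 5 of the 6, all but *Mertk*, the window holds GAGGAA or its reverse complement TTCCTC, letters that PU.1 and other ETS factors bind, against 23.1% of 27025 promoter windows of the same length. The windows of *C1qb* and *C1qc* are shown because these neighbours had the most similar levels over the arrays, that of *Cd5l* for its high level in ERY, and that of *Mertk* as the window without a match. They are C1qb at chr4:136886201-136886450 (minus strand), C1qc at chr4:136892915-136893164 (minus strand), Cd5l at chr3:87357631-87357880 (plus strand) and Mertk at chr2:128698665-128698914 (plus strand). The table's start can lie inside the gene span given above, as it does for *C1qc*. Capitals mark GAGGAA or TTCCTC.
C1qb: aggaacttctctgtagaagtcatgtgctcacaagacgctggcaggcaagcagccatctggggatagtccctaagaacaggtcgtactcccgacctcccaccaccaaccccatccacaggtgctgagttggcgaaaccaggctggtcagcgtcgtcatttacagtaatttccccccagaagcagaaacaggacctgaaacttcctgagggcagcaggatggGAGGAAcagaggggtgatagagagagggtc
C1qc: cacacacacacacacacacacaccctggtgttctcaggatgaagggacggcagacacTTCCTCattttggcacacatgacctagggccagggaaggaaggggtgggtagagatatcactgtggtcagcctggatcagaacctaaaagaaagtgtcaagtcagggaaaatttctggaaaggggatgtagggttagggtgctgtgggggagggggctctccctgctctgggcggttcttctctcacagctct
Cd5l: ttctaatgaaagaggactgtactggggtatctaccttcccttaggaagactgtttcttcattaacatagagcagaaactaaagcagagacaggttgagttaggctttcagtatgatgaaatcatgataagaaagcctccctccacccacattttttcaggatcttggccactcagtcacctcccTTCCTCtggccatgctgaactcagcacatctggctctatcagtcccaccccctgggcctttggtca
Mertk: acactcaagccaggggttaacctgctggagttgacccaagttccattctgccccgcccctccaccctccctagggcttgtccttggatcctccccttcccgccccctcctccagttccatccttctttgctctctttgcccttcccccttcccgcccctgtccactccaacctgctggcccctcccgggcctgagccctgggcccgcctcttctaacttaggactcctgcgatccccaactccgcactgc
The first letter of the match lies 30 bases before that start for *C1qb*, 193 for *C1qc* and 66 for *Cd5l*. The other motifs were searched on both strands as well, and no motif contains another. The MAF factor site TGCTGA was found in 2 of the 6 windows against 15.8% of all windows, the GATA factor site AGATAA in 0 against 10.3%, and the AP-1 site TGACTCA in 1 against 4.43%. A match describes the letters of the window and not a bound factor.

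The arrays as a whole set the scale for these genes. The deposited values are log2 levels after RMA, so a difference of 1 is a 2-fold change, and a level is compared between populations for the same probe set only. The arrays' medians over all probe sets lay between 5.99 and 6.25. The 95th percentile of 1015 olfactory receptor genes, which blood cells hardly use, was taken as background. Computed on population means, it stood at 5.65 in HSPC, 5.98 in ERY and 6.10 in MEG. On single arrays it was 7.35 on MEG array 4, against 6.05, 5.91 and 5.64 on MEG arrays 1, 2 and 3. The levels of *Cd5l* (6.82), *C1qa* (6.45) and *Vcam1* (6.05) on MEG array 4 lie below that array's own value. All 9 erythroid marker genes were higher in ERY and all 8 megakaryocyte marker genes were higher in MEG than in HSPC. The 8 stem and progenitor genes were not uniform, with 6 called lower in ERY and 6 lower in MEG. HSPC arrays 1 and 2 stood apart from HSPC arrays 3 and 4, and MEG arrays 1 and 3 stood apart from each other, as described with the genes concerned.

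In ERY, 6 of the 10 macrophage genes were higher than in HSPC, where 8.35% of all genes were called higher. They were *C1qa*, *C1qc*, *Cd5l*, *Adgre1*, *Vcam1* and *Mertk*, and their differences ran from 1.18 to 2.66 on the log2 scale. None of the 10 was called lower by limma, against 12.3% of all genes, though 1, *Csf1r*, was lower at an unadjusted p under 0.05, and the median difference of the 10 was 1.57 against 0.03 for all genes. A gene was called at a change of more than 2-fold and an adjusted p under 5% in limma, fitted to all 12 arrays and adjusted by Benjamini-Hochberg over all genes. Without HSPC arrays 3 and 4, 3 of the 10 were called higher, *C1qa*, *Cd5l* and *Vcam1*. Over all 19937 genes that fit called 1169 higher, against 1664 with all 12 arrays. These are bulk samples, in which more cells of a type and more RNA per cell cannot be told apart.

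**Figure D1:**
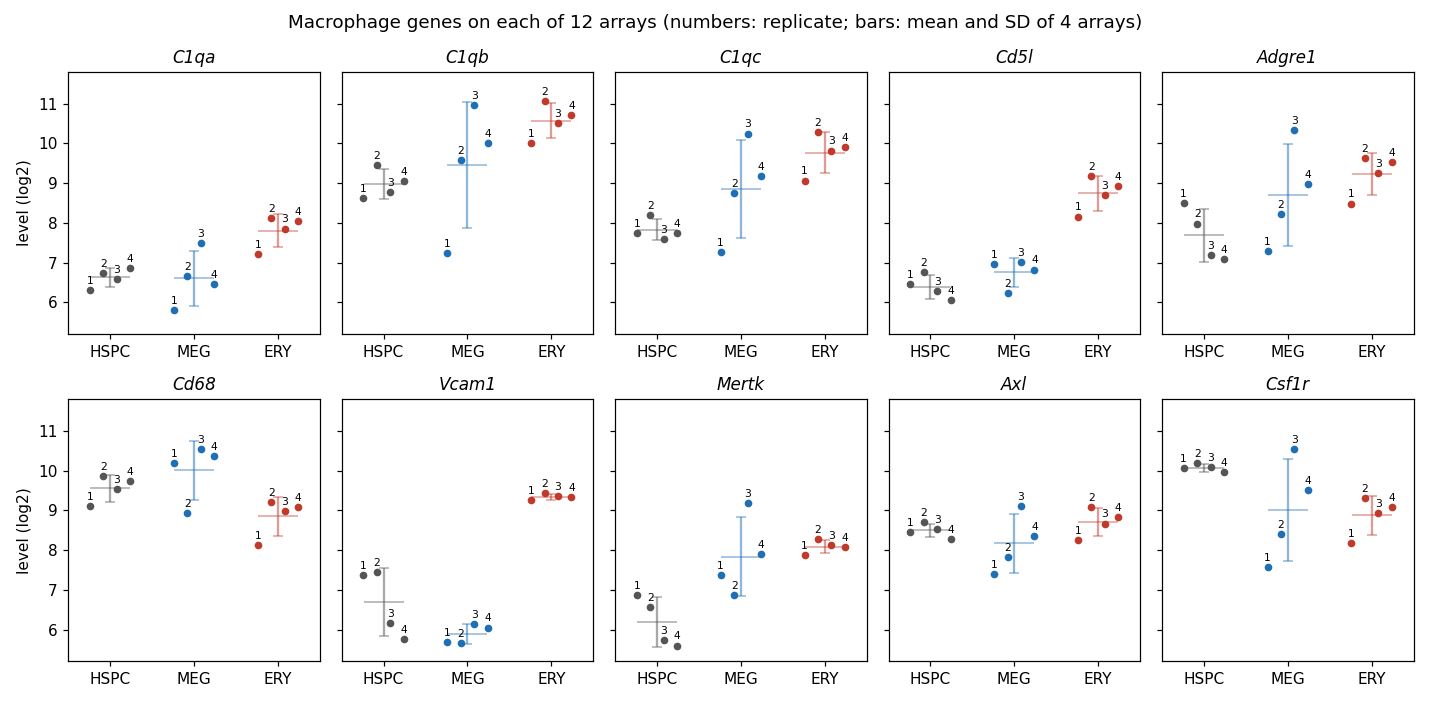
Each panel plots the log2 level of 1 macrophage gene on the 4 arrays of HSPC, MEG and ERY, with the replicate number beside each point and bars for the mean and SD of 4 arrays. *Vcam1* and *Cd5l* lie higher on all ERY arrays than on all others, *Csf1r* lies higher on all HSPC arrays than on all ERY arrays, and the MEG arrays spread widely for *C1qb*, *C1qc*, *Adgre1* and *Csf1r*.

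*Vcam1*, at chr3:116110020-116129688, encodes the adhesion molecule that binds integrin alpha 4 beta 1 on erythroblasts. Its log2 levels on ERY arrays 1 to 4 were 9.25, 9.44, 9.37 and 9.33. On the HSPC arrays they were 7.38, 7.44, 6.16 and 5.77, and on the MEG arrays 5.69, 5.66, 6.15 and 6.05. All ERY arrays were above all others, the first pair of HSPC arrays was more than 1 log2 unit above the second pair, and only 1 MEG array was above its background. The difference of ERY from HSPC was 2.66 (SE 0.32, adjusted p = 4.24e-05 by limma), a 6.31-fold change, and that from MEG was 3.46 (SE 0.32, adjusted p = 3.96e-06), or 10.97-fold, a value that rests on MEG levels near background. Both calls held in all 12 fits that left out 1 array, while the difference from HSPC arrays 1 and 2 alone was 1.93 and that from HSPC arrays 3 and 4 alone was 3.38. MEG differed from HSPC by -0.80 (SE 0.32, adjusted p = 0.0767), which was not called, but was called at -1.10 (adjusted p = 0.00983) without HSPC array 4. The SD of the ERY arrays was 0.08 for *Vcam1*, the lowest of the 10 genes.

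The binding partner of VCAM1 was also measured. *Itga4*, encoding the integrin alpha 4 subunit, was higher in ERY than in HSPC by 1.78 (adjusted p = 0.00594) and higher than in MEG by 2.58 (adjusted p = 0.000506). *Itgb1*, encoding the beta 1 subunit, differed between ERY and HSPC by 0.87 (adjusted p = 0.141) and was higher in MEG than in HSPC by 2.46 (adjusted p = 0.000594). *Itga4* stood at 11.73, 11.57, 11.67 and 11.38 on the ERY arrays, and at 10.97, 10.28, 9.21 and 8.76 on the HSPC arrays. As with *Vcam1*, the HSPC arrays 1 and 2 were higher than arrays 3 and 4.

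*Cd5l*, at chr3:87357881-87371074, encodes a secreted scavenger protein made by tissue macrophages. Its log2 levels were 8.16, 9.18, 8.70 and 8.92 on the ERY arrays, 6.46, 6.77, 6.29 and 6.06 on the HSPC arrays, and 6.96, 6.23, 7.01 and 6.82 on the MEG arrays. All ERY arrays were above all others, by at least 1 log2 unit. The difference of ERY was 2.35 from HSPC (SE 0.24, adjusted p = 1.09e-05) and 1.99 from MEG (SE 0.24, adjusted p = 4.12e-05), by limma, and both calls held in all 12 fits without 1 array. MEG and HSPC overlapped and differed by 0.36 (95% interval -0.17 to 0.89, adjusted p = 0.276). Its MEG levels had an SD of 0.36, and MEG array 3 was only 0.04 above MEG array 1.

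Of the C1q genes, *C1qa* and *C1qc* were higher in ERY than in HSPC and *C1qb* missed the test with all 12 arrays. *C1qa*, the A chain, stood at 7.21, 8.12, 7.86 and 8.04 on the ERY arrays, at 6.32, 6.74, 6.59 and 6.86 on the HSPC arrays and at 5.81, 6.66, 7.50 and 6.45 on the MEG arrays. *C1qb*, the B chain, stood at 10.01, 11.06, 10.52 and 10.72 on the ERY arrays, at 8.62, 9.46, 8.78 and 9.05 on the HSPC arrays and at 7.24, 9.59, 10.97 and 9.9998 on the MEG arrays. *C1qc*, the C chain, stood at 9.06, 10.28, 9.82 and 9.91 on the ERY arrays, at 7.75, 8.20, 7.59 and 7.75 on the HSPC arrays and at 7.27, 8.76, 10.25 and 9.17 on the MEG arrays. For all 3 genes every ERY array was above every HSPC array, while the MEG arrays spanned the HSPC levels and, for *C1qb* and *C1qc*, most of the ERY levels.

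Against HSPC, ERY was higher by 1.18 for *C1qa* (SE 0.31, adjusted p = 0.00991) and by 1.95 for *C1qc* (SE 0.48, adjusted p = 0.00732). For *C1qb* the difference was 1.60 (SE 0.59, 95% interval 0.31 to 2.89, adjusted p = 0.0569), and the MEG arrays, with an SD of 1.58, raised the shared estimate of the spread. With only the 8 HSPC and ERY arrays in the limma fit, the same difference of *C1qb* was called (adjusted p = 0.00107), as it was without MEG array 1 (adjusted p = 0.00169) or MEG array 3 (adjusted p = 0.0279). The *C1qc* call was lost without HSPC arrays 3 and 4 (1.79, adjusted p = 0.0630). Against MEG, ERY was higher by 1.20 for *C1qa* (SE 0.31, adjusted p = 0.0109). This difference fell below 2-fold, at 0.94 without MEG array 1 and at 0.92 with low values raised to background. *C1qa* on MEG array 1, at 5.81, lay below the MEG background of 6.10, and on MEG array 4, at 6.45, below that array's own 7.35. The differences of ERY from MEG for *C1qb* (1.13, adjusted p = 0.216) and *C1qc* (0.91, adjusted p = 0.221) were not called, but both were called without MEG array 3, at 1.63 (adjusted p = 0.0480) and 1.37 (adjusted p = 0.0290).

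C1q acts with the proteases C1r and C1s. *C1s1* stood at 6.73, 5.38, 5.24 and 5.26 on the ERY arrays and had a mean of 4.03 in HSPC, so that it was above background only on ERY array 1, the array with the highest hepatocyte genes. The fitted difference of 1.62 (adjusted p = 0.000676) is therefore one between mostly background levels. *C1ra*, at 4.18 in HSPC and 4.47 in ERY, was at background as well. Of 15 measured genes of complement components and regulators outside C1q, 6 were higher and 2 lower in ERY than in HSPC, with a median of 0.77. Of these 15, 8 were highest on ERY array 1, as 14 of 15 hepatocyte genes were, among them *Cfb* at 9.60, 8.80, 7.86 and 8.17 on the ERY arrays, named after its values were seen, and the part of hepatocyte RNA was not tested. The largest changes in this list included 2 genes that restrain complement at the cell surface. These were *Cd59a*, higher by 3.03, and *Cd55*, higher by 2.56, from an HSPC mean of 5.62 that is not above background. The other was *Cd93*, lower, at -3.16.

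*Adgre1*, at chr17:57358581-57483529, encodes an adhesion receptor used as a general label of mouse macrophages. Its log2 levels were 8.49, 9.63, 9.26 and 9.54 on the ERY arrays, 8.49, 7.98, 7.19 and 7.08 on the HSPC arrays, and 7.28, 8.23, 10.34 and 8.98 on the MEG arrays. ERY array 1 and HSPC array 1 met at 8.49, the other ERY arrays were above all HSPC arrays, and MEG array 3 was the highest of the 12. The difference of ERY from HSPC was 1.54 (SE 0.55, adjusted p = 0.0469), and the call held in 4 of 12 limma fits that left out 1 array. It was lost without HSPC array 2, 3 or 4, ERY array 2, 3 or 4, or MEG array 2 or 4, with the adjusted p reaching 0.122, and without HSPC arrays 3 and 4 the difference was 0.99 (adjusted p = 0.296). ERY and MEG differed by 0.52 (95% interval -0.67 to 1.71, adjusted p = 0.582).

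*Mertk* and *Axl* encode receptor kinases of the TAM family, which bind dying cells through the bridging proteins GAS6 and protein S. *Mertk*, at chr2:128698915-128803162, stood at 7.89, 8.27, 8.12 and 8.07 on the ERY arrays, at 6.86, 6.56, 5.73 and 5.60 on the HSPC arrays, and at 7.36, 6.88, 9.18 and 7.91 on the MEG arrays. Every ERY and MEG array was above every HSPC array. On HSPC arrays 3 and 4 *Mertk* lay below those arrays' own background values of 5.79 and 5.85, so that its differences from HSPC start partly from background. The gene was higher by 1.90 in ERY (SE 0.42, adjusted p = 0.00367) and by 1.64 in MEG (SE 0.42, adjusted p = 0.00919) than in HSPC, by limma, comparisons that share the HSPC arrays. Both calls held in all 12 fits without 1 array, and both were lost without HSPC arrays 3 and 4, at 1.37 (adjusted p = 0.0610) and 1.12 (adjusted p = 0.128). ERY and MEG differed by 0.26 (95% interval -0.66 to 1.17).

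*Axl*, at chr7:25756500-25788924, was called in none of the 3 comparisons. It stood at 8.24, 9.09, 8.67 and 8.84 on the ERY arrays, at 8.45, 8.71, 8.54 and 8.29 on the HSPC arrays, and at 7.39, 7.84, 9.12 and 8.36 on the MEG arrays, with overlap between all populations. ERY differed from HSPC by 0.22 (95% interval -0.45 to 0.89, adjusted p = 0.665), an interval within 2-fold either way. The remaining family member, *Tyro3*, differed between ERY and HSPC by -0.27 (adjusted p = 0.205). Of the ligand genes, *Gas6* was near background in all populations, with means of 5.94 in HSPC, 6.51 in ERY and 6.08 in MEG, and *Pros1*, encoding protein S, was higher in MEG than in HSPC by 4.03 (adjusted p = 4.51e-06).

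*Csf1r* and *Cd68* did not follow the other genes. *Csf1r* stood at 10.05, 10.20, 10.08 and 9.96 on the HSPC arrays, at 8.18, 9.32, 8.93 and 9.09 on the ERY arrays, and at 7.58, 8.41, 10.54 and 9.51 on the MEG arrays. All HSPC arrays were above all ERY arrays, with an SD of 0.10 in HSPC, and MEG array 3 was the highest of the 12. The difference of ERY from HSPC was -1.19 (SE 0.49, 95% interval -2.26 to -0.13, adjusted p = 0.0860) and was not called with all 12 arrays. It was called as lower in the limma fit of only the 8 HSPC and ERY arrays (adjusted p = 0.00285), without MEG array 1 (adjusted p = 0.0279) and without MEG array 3 (adjusted p = 0.0221). MEG differed from HSPC by -1.06 (SE 0.49, adjusted p = 0.116), which was called at -1.57 (adjusted p = 0.00823) without MEG array 3.

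*Cd68*, at chr11:69664213-69666170, encodes a glycoprotein of the lysosomes of macrophages and other phagocytes. Its log2 levels were 8.13, 9.21, 8.97 and 9.08 on the ERY arrays, 9.10, 9.87, 9.53 and 9.74 on the HSPC arrays, and 10.19, 8.92, 10.55 and 10.37 on the MEG arrays. The lowest HSPC array and the lowest MEG array overlapped the ERY range. ERY was lower than MEG, at -1.16 (SE 0.34, adjusted p = 0.0240), and the call was lost without ERY array 1 (-0.92, adjusted p = 0.0801), MEG array 1 (-1.10, adjusted p = 0.0554), MEG array 3 (-0.98, adjusted p = 0.0747) or MEG array 4 (-1.04, adjusted p = 0.0706). Against HSPC the differences were -0.71 in ERY (95% interval -1.46 to 0.04) and 0.45 in MEG (95% interval -0.30 to 1.20), and neither was called.

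In MEG, 1 of the 10 genes, *Mertk*, was higher than in HSPC, where 8.77% of all genes were called higher. None was called lower by limma, against 11.4% of all genes, though 1, *Vcam1*, was lower at an unadjusted p under 0.05. The median difference of the 10 genes was 0.41 against -0.02 for all genes, and 6 of the 10 differences were above 0. Without MEG array 1, 4 were called higher, as *C1qb* (1.21, adjusted p = 0.0167), *C1qc* (1.57, adjusted p = 0.00491) and *Adgre1* (1.49, adjusted p = 0.0353) joined *Mertk*. The counts of ERY and of MEG against HSPC use the same HSPC arrays and are not independent of each other.

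Between ERY and MEG, 3 of the 10 genes were higher in ERY, *C1qa*, *Cd5l* and *Vcam1*, where 7.77% of all genes were called higher. *Cd68* was the 1 gene lower in ERY, against 8.75% of all genes. The median difference was 0.72, beside 0.02 for all genes. Without MEG array 3, 5 were called higher, with *C1qb* and *C1qc* added, and *Cd68* was no longer called.

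**Figure D2:**
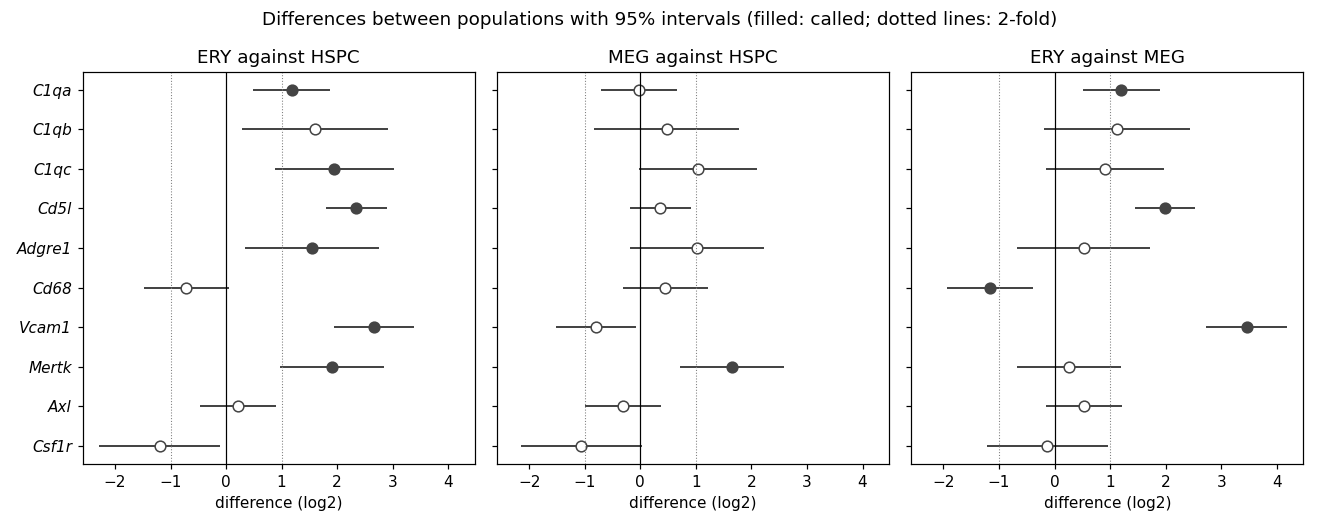
Points are the log2 differences of the 10 macrophage genes in the 3 comparisons, lines are 95% intervals from limma, filled points were called and dotted lines mark a 2-fold change. The intervals of *Vcam1* and *Cd5l* lie above 1 in both ERY comparisons, and those of *C1qb*, *Adgre1* and *Csf1r*, genes with a wide spread over the MEG arrays, are among the widest.

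On single arrays, the 10 genes shared their highest and lowest array within ERY, and their highest array within MEG. All 10 were highest on ERY array 2, where 32.2% of all genes were highest, and all 10 were lowest on ERY array 1, where 35.5% of all genes were lowest. Between these arrays the median difference of the 10 was 1.04, and 6 exceeded 1, while the median over 12032 genes above background was -0.02 and 0.482% of them exceeded 1. The shift was unequal. *Vcam1* differed by 0.19 and *Mertk* by 0.39 between ERY arrays 2 and 1, while the other 8 genes differed by 0.85 to 1.21. Markers of other cells were also highest on ERY array 2, namely 14 of 17 endothelial, 8 of 12 stromal and 6 of 8 megakaryocyte genes, and their part was not tested.

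All 10 genes were also highest on MEG array 3, where 22.4% of all genes were highest. *C1qa*, *C1qb*, *C1qc*, *Adgre1*, *Axl* and *Csf1r* were lowest on MEG array 1, and *Cd5l*, *Cd68*, *Vcam1* and *Mertk* on MEG array 2. From MEG array 1 to MEG array 3 the median difference of the 10 genes was 1.77, with 7 above 1, against a median of 0.11 and 14.7% above 1 for the genes above background. The largest differences were those of *C1qb* (3.73), *Adgre1* (3.05), *C1qc* (2.98) and *Csf1r* (2.96), and the smallest were those of *Vcam1* (0.45), *Cd68* (0.37) and *Cd5l* (0.04). In HSPC no 1 array was highest for all genes. *Vcam1*, *Adgre1* and *Mertk* were higher by 1.45, 1.10 and 1.05 on the mean of arrays 1 and 2 than on that of arrays 3 and 4, and the other 7 genes by -0.19 to 0.44. The median of the 10 was 0.24 with 3 above 1, against a median of -0.09 and 17.4% above 1 for the genes above background.

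**Figure D3:**
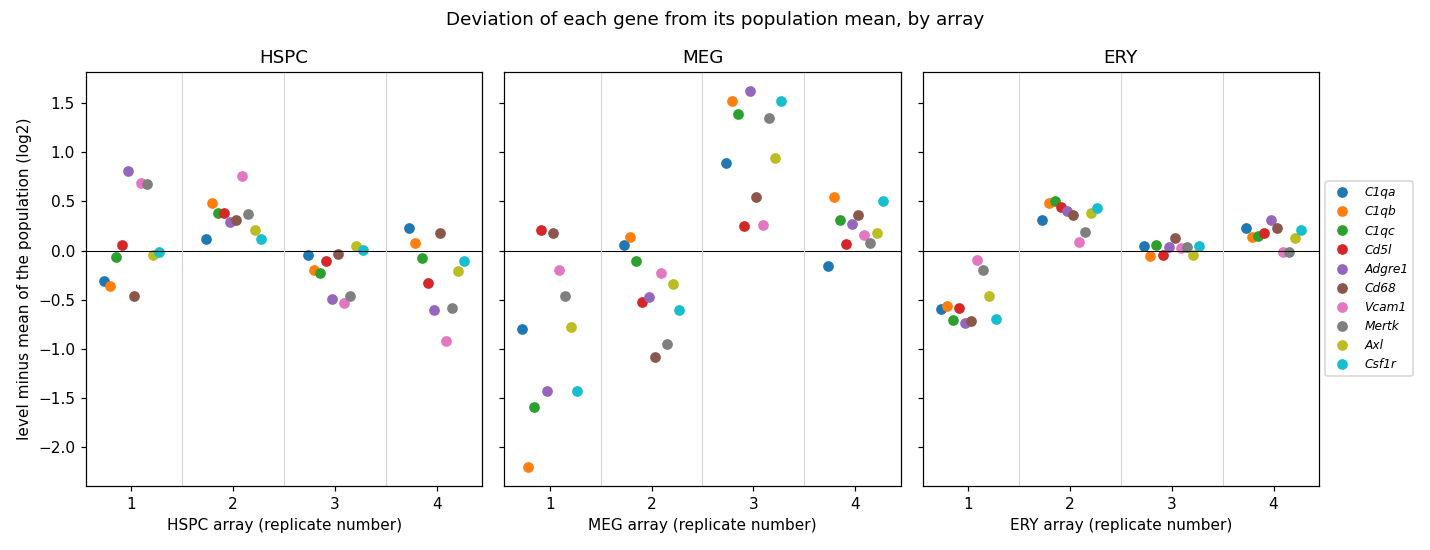
Points give the level of each of the 10 macrophage genes on an array minus its mean over the 4 arrays of that population, in log2 units, with the genes side by side within each array. All 10 points lie above 0 on MEG array 3 and on ERY array 2 and below 0 on ERY array 1, and *Vcam1* and *Mertk* lie nearest to 0 on ERY arrays 1 and 2.

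Other macrophage genes followed the same arrays but not the same populations. Of 29 measured, 28 were lowest on ERY array 1, 22 were highest on ERY array 2 and 24 were highest on MEG array 3. In ERY against HSPC, 7 were higher and 4 lower, with a median of 0.29. The largest changes were decreases, of *Fcer1g* (-2.70), *Lyz2* (-2.54) and *Tyrobp* (-2.24), genes of Fc receptor signalling, lysozyme and an activating adaptor that granulocytes and their precursors use too. Among the genes that rose were *Timd4* (1.68, adjusted p = 6.92e-05), a receptor for dying cells, *Mrc1* (2.15, adjusted p = 0.00123), the mannose receptor, and *Spic* (1.71, adjusted p = 3.23e-05), a transcription factor of iron-recycling macrophages, of which *Timd4* and *Spic* were named after their values were seen. The HSPC means of *Mrc1* (5.55) and *Spic* (5.31) were not above background, so that their fitted differences start from background.

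*Timd4* and *Spic* were higher on every ERY array than on every other array, as *Cd5l* and *Vcam1* were, and both were lowest in ERY on ERY array 1, with 7.12, 8.16, 7.91 and 7.75 for *Timd4* and 6.47, 7.23, 7.21 and 7.18 for *Spic* on the ERY arrays. Their highest levels on the MEG arrays were 5.78 and 5.11, so that these genes did not reach the background of MEG, and MEG array 3 was not raised for *Timd4* (5.48). *Ctss* and *Siglec1*, also named after their values were seen, had the other pattern. *Ctss*, a lysosomal protease gene, was higher in MEG than in HSPC by 2.48 (adjusted p = 0.00178) and lower in ERY than in MEG, at -2.19 (adjusted p = 0.00452). *Siglec1*, encoding the adhesion receptor CD169, stood at 6.94, 7.002, 8.78 and 7.86 on the MEG arrays and was higher there than in HSPC by 1.63 (adjusted p = 0.00221), with a difference between ERY and HSPC of 0.45 (adjusted p = 0.371). *Cd163*, the hemoglobin scavenger receptor of many tissue macrophages, was at background on all arrays, between 4.79 and 5.22.

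In MEG against HSPC, 4 of these 29 genes were higher and none was lower, with a median of 0.33. In ERY against MEG, 6 were higher and 8 lower, with a median of -0.16.

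Genes of engulfment and digestion of cells numbered 22, of which 5 were higher and 2 lower in ERY than in HSPC, 7 higher and 3 lower in MEG than in HSPC, and 4 higher and 8 lower in ERY than in MEG. The largest changes in ERY were those of *Cd36* (3.98, from an HSPC mean of 4.70 that is not above background), a scavenger receptor that erythroblasts also carry, *Elmo1* (-3.88), an adaptor of engulfment, and *Ctsb* (1.83), a lysosomal protease. In the list of island adhesion, whose 14 genes include some of other island roles, 4 were higher and 1 lower in ERY than in HSPC. *Rb1* (4.67), a cell cycle gene needed in island macrophages, *Icam4* (2.98), a red cell adhesion molecule, and *Klf1* (2.78), an erythroid transcription factor, changed most. *Klf1* is counted among the erythroid marker genes as well. *Rb1* stood at 8.91, 7.80, 5.93 and 5.79 on the HSPC arrays, and its difference was 5.27 without HSPC array 1. In MEG, *Rb1* was higher than in HSPC too, by 4.51 (adjusted p = 6.63e-05 by limma), and ERY differed from MEG by 0.16. *Maea*, encoding a protein of erythroblast to macrophage contact, differed between ERY and HSPC by -0.88, which is under 2-fold and was not called.

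Of 9 genes of heme and iron recycling, 4 were higher in ERY than in HSPC and none lower, with a median of 0.91. They were *Slc40a1* (3.33), the iron exporter, *Blvrb* (2.89), a biliverdin reductase, *Ncoa4* (2.34), which directs ferritin to lysosomes, and *Hmox1* (1.47), the heme oxygenase. Erythroblasts also express genes of this list. *Slc40a1* stood at 8.21, 7.73, 6.24 and 6.42 on the HSPC arrays, higher on arrays 1 and 2 as *Vcam1* was, and at 10.35, 10.63, 10.48 and 10.46 on the ERY arrays. *Hmox1* stood at 9.41, 10.48, 10.17 and 10.45, so that *Hmox1* was about 1 log2 unit lower on ERY array 1 than on ERY array 2, as the C1q genes were, while *Slc40a1* varied less between these arrays. In MEG, *Ncoa4* was the 1 gene of the list that was higher than in HSPC.

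Genes of the CSF1 axis and of myeloid regulation went the other way. Of 15, 1 was higher and 7 lower in ERY than in HSPC, with a median of -1.10, and 1 was higher and 5 lower in MEG. *Spi1*, encoding PU.1, stood at 11.30, 11.71, 11.77 and 11.91 on the HSPC arrays and at 7.39, 8.60, 8.07 and 8.33 on the ERY arrays, a difference of -3.57 (adjusted p = 1.14e-05). *Irf8* (-2.78) and *Irf5* (-2.23), interferon regulatory factors of myeloid cells, were next. *Spi1* reached 10.002 on MEG array 3, against 8.07 on MEG array 1, and it was lowest among the ERY arrays on ERY array 1. The ligand genes *Csf1* and *Il34* were not called in any comparison.

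Markers of other cell types moved with the macrophage genes in part, and their part in the differences was not tested. Hepatocyte genes were higher in ERY and lower in MEG. Of 15, 13 were higher and none lower in ERY than in HSPC, 13 were lower in MEG than in HSPC, and all 15 were higher in ERY than in MEG. *Alb*, encoding albumin, stood at 13.06, 12.72, 12.63 and 12.66 on the ERY arrays and at 6.05, 5.69, 5.23 and 6.14 on the MEG arrays. Within ERY, 14 of the 15 hepatocyte genes were highest on ERY array 1, where all 10 macrophage genes were lowest, and 0 were lowest on ERY array 2, where the macrophage genes were highest. The log2 of the summed linear levels ran from 14.75 to 15.45 for hepatocyte genes over the ERY arrays, 12.84 to 14.46 over the HSPC arrays and 10.10 to 11.19 over the MEG arrays, with 10 of the 15 at background in MEG. In HSPC, array 2 was highest for all 15 hepatocyte genes and for 7 of the 10 macrophage genes, against 9.5% of all genes. It was also highest for 12 of 17 endothelial and 6 of 8 megakaryocyte genes. The same array was highest for 2 of 8 stem and progenitor, 1 of 13 granulocyte and monocyte, 1 of 12 stromal and 0 of 9 erythroid genes.

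Granulocyte and monocyte genes stood out on MEG array 3. All 13 measured were highest there among the MEG arrays, and *Mpo*, encoding myeloperoxidase, stood at 5.63, 8.01, 10.87 and 6.24 on MEG arrays 1 to 4. The log2 of the summed levels of the 13 was 9.52, 10.46, 12.61 and 10.08 on the MEG arrays, between 14.03 and 14.37 on the HSPC arrays, and between 9.62 and 10.24 on the ERY arrays. Of the 13 genes, 8 were lower and none higher in ERY than in HSPC, and 6 were lower and 1 higher in MEG, with *Ctsg* (-5.54), *Prtn3* (-5.25) and *Elane* (-5.20) changing most in ERY. For the 10 macrophage genes the summed level was 11.22, 11.50, 13.14 and 12.29 on the MEG arrays, 11.68 to 12.06 on the HSPC arrays and 11.99 to 12.93 on the ERY arrays. MEG array 3 was highest for both lists, and without MEG arrays 1 and 3 *C1qc* and *Mertk* were the macrophage genes called higher in MEG and *Csf1r* was called lower (-1.11, adjusted p = 0.0285).

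Endothelial genes, some of which hematopoietic cells use as well, were mixed. Of 17, 3 were higher and 7 lower in ERY than in HSPC, and 2 were higher and 6 lower in MEG. *Emcn* (-3.08, to an ERY mean of 5.31 not above background), *Eng* (-2.47) and *Egfl7* (-2.39) changed most, and *Cdh5*, encoding the cadherin of endothelial junctions, was higher in ERY by 1.63 (adjusted p = 0.00270), a gene named after its value was seen. The summed log2 level ran from 11.09 to 11.52 in ERY, 11.74 to 12.58 in HSPC and 11.87 to 12.43 in MEG, with 7 of the 17 at background in MEG and 2 in ERY. *Vcam1* is made by endothelial cells too. Of 12 stromal genes, 1 was higher, *Dcn* (1.77, from an HSPC mean of 5.30 not above background), and 1 lower, *Pdgfrb* (-2.54, to an ERY mean of 5.97 not above background), in ERY than in HSPC, with 5 of the 12 at background in ERY and HSPC and 7 in MEG. Their summed level was 11.31 to 11.67 in ERY, 11.34 to 12.28 in HSPC and 9.89 to 10.13 in MEG. In ERY and HSPC this sum rests largely on *Dlk1*, a gene named after its values were seen. Its mean was 10.87 in ERY, 11.38 in HSPC and 8.26 in MEG, the highest of the list in each.

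**Figure D4:**
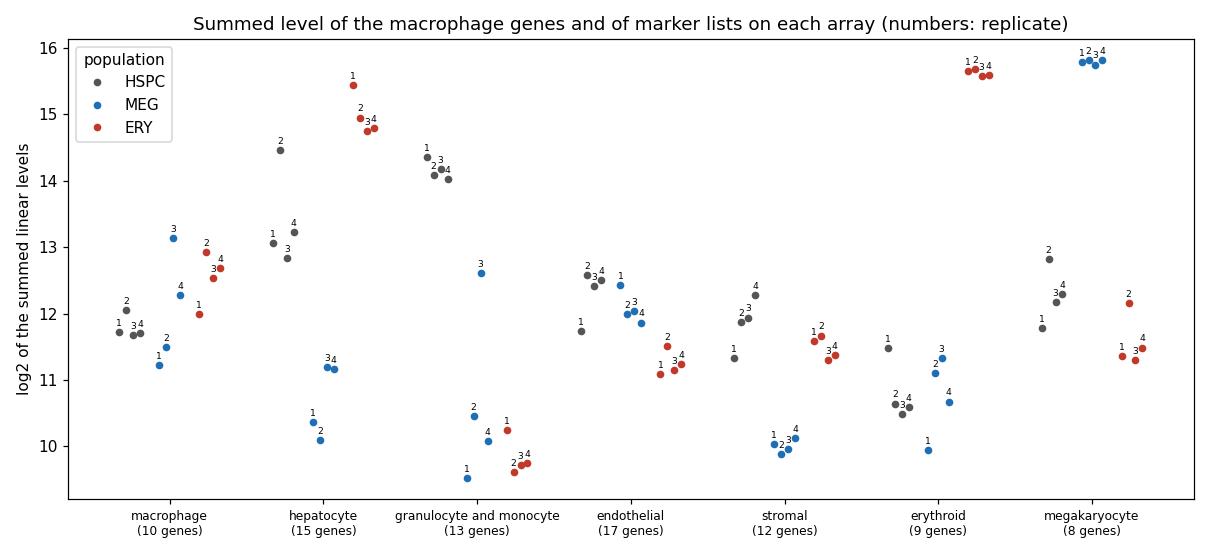
The vertical axis is the log2 of the summed linear levels of the macrophage genes and of 6 marker lists, and each point is 1 array, coloured by population and marked with its replicate number. Points are comparable within a list only, and the stromal sums rest largely on *Dlk1* in HSPC and ERY. Macrophage and granulocyte genes are both highest in MEG on MEG array 3, and hepatocyte genes are highest in ERY on ERY array 1, where the macrophage genes are lowest.

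The genes most like each macrophage gene over the 12 arrays were ranked by the root mean square difference of their log2 levels, each taken relative to its own mean, among 12032 genes above background. This describes 12 arrays that share 3 populations and carries no test. For the mean of the C1q genes, the nearest were *Sdc3* (0.345), *Clec4n* (0.420), *Mrc1* (0.439), *Arhgap23* (0.442), *Colec12* (0.465), *Dab2* (0.468), *Lmo2* (0.481) and *Maf* (0.486). *Clec4n* (0.280) and *Dab2* (0.284) were also nearest to *Adgre1*, and *Msr1* (0.343), a scavenger receptor gene, and *Dab2* (0.370) to *Mertk*. Among the 10 genes, *C1qb* and *C1qc* were the closest pair, at 0.331, and *Cd68* and *Vcam1* the most distant, at 2.04.

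The nearest genes of *Csf1r* were *Sirpa* (0.224), a receptor of myeloid cells, and *Anxa2* (0.346), those of *Cd68* were *Grn* and *Lgals3* (both 0.243), a lysosomal and a lectin gene, and those of *Axl* were *Entpd1* (0.240) and *Hfe* (0.261). For *Vcam1* they were *Rad51c* (0.305) and *Ddah1* (0.332), and for *Cd5l* they were *Aff1* (0.307) and *Fbxo34* (0.333). These 4 genes were high in ERY and had small spreads over the ERY arrays, with SDs of 0.18, 0.19, 0.19 and 0.24. *Cd5l* itself had an SD of 0.44 over the ERY arrays, where it was lowest on ERY array 1 with the other macrophage genes.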

How the data were processed

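Total RNA of 12 samples, 4 from each of 3 mouse fetal liver populations, was hybridized to GeneChip Mouse Gene ST arrays. Per the labels, the authors used RMA, and the deposited values are on the log2 scale, 1 for each probe set on each array. Neither the RMA version nor a filter on probes was found in the sources. RMA equalizes the distribution of the arrays, so a shift common to most genes is removed. No counts exist, and the number of arrays limits the precision. Of 34760 probe sets, 21640 carry 1 gene symbol, and for each of the 19937 genes the one with the highest overall mean was used. limma 3.58.1 in R 4.3.3 fitted 1 mean per population to all 12 arrays, without a limit on low levels, with Benjamini-Hochberg adjustment over all genes and calls above 2-fold at an FDR of 5%. The fit was tested on simulated data. The labels give replicates only a number, and the paper calls them biological replicates, 4 per cell type. The p-values set a difference of population means against the spread between these samples, estimated over the 3 populations together.

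The 10 genes were listed by name, but they, the 13 lists (198 entries, 186 measured) and the tests were chosen with earlier results of these data known. Named genes are the 10, up to 3 called genes with the largest difference between ERY and HSPC per list, genes that share a role with the 10, and the nearest genes. *Alb*, *Mpo* and *Cd163* come from a list of cell type markers. *Hmox1* was named after its values were seen, and others are marked so where they appear. Alternatives were other sets of arrays, a replicate block, limits on low levels, quantile and ribosomal scaling, the mean over probe sets, other variance models and other thresholds. Tables and figures used Python 3.11.15, pandas 2.3.3, numpy 2.4.6 and matplotlib 3.10.9.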

Additional observations from a re-analysis of the deposited data

How the results depend on the processing

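Of the differences of single genes under the alternatives other than the changed thresholds, for which only counts are given, 681 kept their direction and side of the threshold, 32 gained and 21 lost a call, and 16 changed sign; why was not tested. Genes called higher in ERY than in HSPC, 6 of 10, numbered 5 to 7 with 1 array left out, 3 without HSPC arrays 3 and 4 and 2 in a test against the 2-fold threshold. Genes called lower, 0 of 10, numbered 0 to 1 with 1 array left out, and 1, *Csf1r*, with only the 8 arrays compared, without MEG arrays 1 and 3, with low values raised to background and with array weights. In MEG against HSPC, 1 was called higher, 1 to 4 with 1 array left out, 0 without HSPC arrays 3 and 4 and in the test against 2-fold, 2 without MEG arrays 1 and 3, 4 with arrays centred on ribosomal protein genes and 3 with array weights. None was called lower, 0 to 1 with 1 array left out, and 1 without HSPC arrays 3 and 4, without MEG arrays 1 and 3 and with array weights. Between ERY and MEG, 3 were called higher, 2 to 5 with 1 array left out, and 1 lower, 0 to 1 with 1 array left out and 0 without MEG arrays 1 and 3, with array weights, in the test against 2-fold and at an FDR of 1%.

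Signs changed only in differences that were not called. In MEG against HSPC, *C1qa* stood at 0.0735 without HSPC arrays 3 and 4, 0.56 with ribosomal centring, 0.26 with low values raised, 0.13 with array weights and between -0.32 and 0.24 with 1 array left out, *C1qb* between -0.0328 and 1.21 with 1 array left out, *Cd68* at -0.19 with array weights and *Axl* at 0.26 with ribosomal centring. Between ERY and MEG, *Mertk* ranged from -0.0623 to 0.71 and *Csf1r* from -0.60 to 0.38 with 1 array left out, and *Csf1r* stood at 0.0632 with array weights. With a replicate block the counts of called genes were unchanged at 6 and 0, 1 and 0, and 3 and 1, although *C1qb* gained (adjusted p = 0.0279 by limma) and *Adgre1* lost (adjusted p = 0.0712) the call in ERY against HSPC. Whether the numbers pair the arrays was not settled. Correlations of same-numbered arrays ran from -0.346 to 0.369, with 5 of 12 pairs above 0.1, and arrays with different numbers were not compared. Ribosomal centring moved the median of all genes to 0.48 in ERY and 0.56 in MEG against HSPC, and to -0.12 between ERY and MEG, and turned 1664 higher and 2447 lower genes in ERY against HSPC into 3020 and 1367, and 1748 and 2270 in MEG against HSPC into 4330 and 914. The test against 2-fold called 595 and 837 of all genes in ERY and 527 and 492 in MEG against HSPC. Between ERY and MEG it called 618 and 713, against 1549 and 1744. A 1.5-fold threshold called 3648 lower in MEG against HSPC and 2325 higher in ERY against MEG, and in MEG against HSPC 2653 were higher with array weights and 1077 without HSPC arrays 3 and 4.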
